A study of Mus musculus with 6 samples.

Results

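The cortical layer genes examined here are 9 genes whose RNA marks neurons at different depths of the mouse cerebral cortex, chosen by gene symbol out of 22584 genes with an Ensembl ID in the count table. Cux1, Cux2 and Rorb formed the upper-layer set of 3, and Fezf2, Bcl11b, Tle4, Foxp2, Tbr1 and Ccn2 the deep-layer set of 6. All 9 were found by symbol, each on 1 Ensembl ID, and all 9 passed the filter on low counts. They were measured by RNA sequencing of brain tissue from wild-type (WT) mice in 3 AllPrep libraries, made from RNA that a column kit had co-purified with DNA and protein, and in 3 TRIzol libraries, the controls, made from RNA extracted with that phenol and guanidine reagent. The comparison asks how RNA measured after co-extraction differs from RNA measured after the conventional route. No brain region, age, sex or strain is given for either group, and whether different animals were used is not stated. The p-values therefore measure only how these libraries vary, and part or all of that variation may be technical.

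The cerebral cortex is built of layers of glutamatergic neurons that are born in an inside-out order, and a network of mutually repressing transcription factors sets which axons each layer sends out. Cux1 and Cux2 are homeodomain proteins with Cut repeats that shape dendrites and synapses of upper-layer neurons, and Rorb is an orphan nuclear receptor of the granular input layer. Fezf2 and Bcl11b (also called Ctip2) are zinc finger proteins that specify subcortically projecting neurons of layer V, while Tbr1, a T-box protein, directs neurons of layer VI towards the thalamus. Tle4, a corepressor that is recruited by other factors, and Foxp2, a forkhead repressor, mark layer VI neurons as well. Ccn2 encodes a secreted matrix protein of layer VIb neurons and is therefore a layer marker but no transcription factor. Several members are known from other sites too: Bcl11b and Foxp2 are made by striatal neurons, Foxp2 by thalamic neurons, and Ccn2 by vascular cells and fibroblasts. In bulk tissue, fewer cells of a type and less RNA per cell cannot be told apart.

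Total counts ran from 38552252 to 50937858 in AllPrep libraries and from 36395330 to 44995120 in TRIzol libraries. Each member had between 492 and 5210 counts in a library. Among genes with 1 to 20 counts, 64.2% to 66.0% of values in AllPrep libraries and 65.7% to 70.9% in TRIzol libraries were even numbers, so a count may not stand for 1 independent fragment, and the fits were repeated with counts halved. General brain markers were present in every library, with Snap25, a synaptic protein of neurons, at 2428 ± 304 CPM in AllPrep and 3175 ± 362 CPM in TRIzol (SD, n = 3 each), and Slc17a7, the vesicular glutamate transporter of cortical and hippocampal neurons, at 838 ± 239 CPM in AllPrep and 863 ± 164 CPM in TRIzol. CPM is the count scaled to a common library size by TMM (trimmed mean of M values) factors. Libraries of one method differed in markers of other brain regions, as the values for striatal and thalamic markers given with the deep-layer genes show. Choroid plexus markers were called higher in AllPrep for 10 of 10 genes, beside 2.52% of all tested genes. Their median log2 fold change was 4.24. Some were near 0 in TRIzol and met the filter on low counts through the AllPrep libraries, so the size of their change is uncertain. Calml4, for example, had 0.11, 0.15 and 0.07 CPM in TRIzol, while Ttr had 12.3, 16.8 and 12.6 CPM there. Like the other lists, these markers were chosen with earlier results of these data known. Calb1 was the 1 called gene among 11 hippocampal markers and among 8 tested cerebellar markers, and 0 of 10 brain tissue markers were called.

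The windows around the transcription start of Bcl11b, Tbr1 and Fezf2 are shown, a choice made from the values. Bcl11b was the only member whose libraries did not overlap between the methods, although it did not pass the test described below. That is 11.1% of members, beside 33.1% of all tested genes. Tbr1 and Fezf2 are the deep-layer genes against which Bcl11b is read within each library. Sequences are from RefSeq on build GRCm38.p6, run 5′ to 3′ along the gene's strand from 250 bases before the start to 50 bases after it, and have matches to the searched motifs in capitals.
Bcl11b, chr12:108003365-108003664, minus strand: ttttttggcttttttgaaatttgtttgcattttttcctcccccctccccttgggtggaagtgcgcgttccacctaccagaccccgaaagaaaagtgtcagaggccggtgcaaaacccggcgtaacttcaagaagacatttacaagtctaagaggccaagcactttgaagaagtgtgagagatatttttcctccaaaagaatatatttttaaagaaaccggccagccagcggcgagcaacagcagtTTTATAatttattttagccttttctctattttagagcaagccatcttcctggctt
Tbr1, chr2:61804203-61804502, plus strand: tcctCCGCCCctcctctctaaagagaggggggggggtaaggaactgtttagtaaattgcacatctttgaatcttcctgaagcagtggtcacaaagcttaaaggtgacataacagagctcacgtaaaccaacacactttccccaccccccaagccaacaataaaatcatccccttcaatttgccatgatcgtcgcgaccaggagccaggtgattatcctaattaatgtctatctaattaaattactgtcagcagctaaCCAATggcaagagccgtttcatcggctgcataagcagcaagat
Fezf2, chr14:12345816-12346115, minus strand: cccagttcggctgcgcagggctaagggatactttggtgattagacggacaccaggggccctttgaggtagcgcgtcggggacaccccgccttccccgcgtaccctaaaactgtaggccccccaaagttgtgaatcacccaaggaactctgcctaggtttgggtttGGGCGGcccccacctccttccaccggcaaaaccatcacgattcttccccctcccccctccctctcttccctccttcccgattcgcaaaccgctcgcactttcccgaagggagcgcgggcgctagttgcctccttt
A motif was searched for on both strands, and its share of all 32851 windows of this length is given beside it. The TATA box, TATAAA, is held by 13.6% of windows, and the Bcl11b window held 1 match next to the start, on the opposite strand. The CCAAT box, searched by those letters, is held by 37.4% of windows and was matched once by Tbr1. The GC box, GGGCGG, is held by 35.7% of windows and was matched once by Tbr1 and once by Fezf2. GC content was 43.0% for Bcl11b, 46.0% for Tbr1 and 61.3% for Fezf2, against a median of 52.7% over all windows. Windows were found for 7 members, with 10 windows in all; Foxp2 and Ccn2 had none in the table. The T-box motif GGTGTGA, held by 3.98% of all windows, had no match in these 10 windows. The motif of ROR receptors, AGGTCA, held by 16.3%, had none there either. The motif of Cut repeat proteins, ATCGAT, held by 0.925% of all windows, matched once, in the window of the second Cux2 start, where it overlaps a TATA box match. These matches describe letters and not binding.

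None of the 9 layer genes passed the test between the extraction methods, which was edgeR's quasi-likelihood test with Benjamini-Hochberg adjustment over 16325 genes and a threshold of 0.05. Across all tested genes 3.8% were called, 2.52% higher and 1.28% lower in AllPrep. At an unadjusted p below 0.05 there were 2 of the 9 members, Bcl11b and Cux1, beside 25.8% of all tested genes. DESeq2's Wald test called 1 of the 9, Bcl11b, beside 13.7% of the genes to which it gave an adjusted p. For limma-voom and limma-trend the count was 0, beside 3.94% and 4.1% of all tested genes. The members' counts were therefore near or below the shares over all genes. Of the 9 log2 fold changes (AllPrep over TRIzol) 5 were positive and 4 negative, with a median of 0.04, beside a median of -0.01 over all tested genes. Only Bcl11b had no overlap between its AllPrep and TRIzol libraries, so 11.1% of members did not overlap, beside 33.1% of all tested genes.

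**Figure D1:**
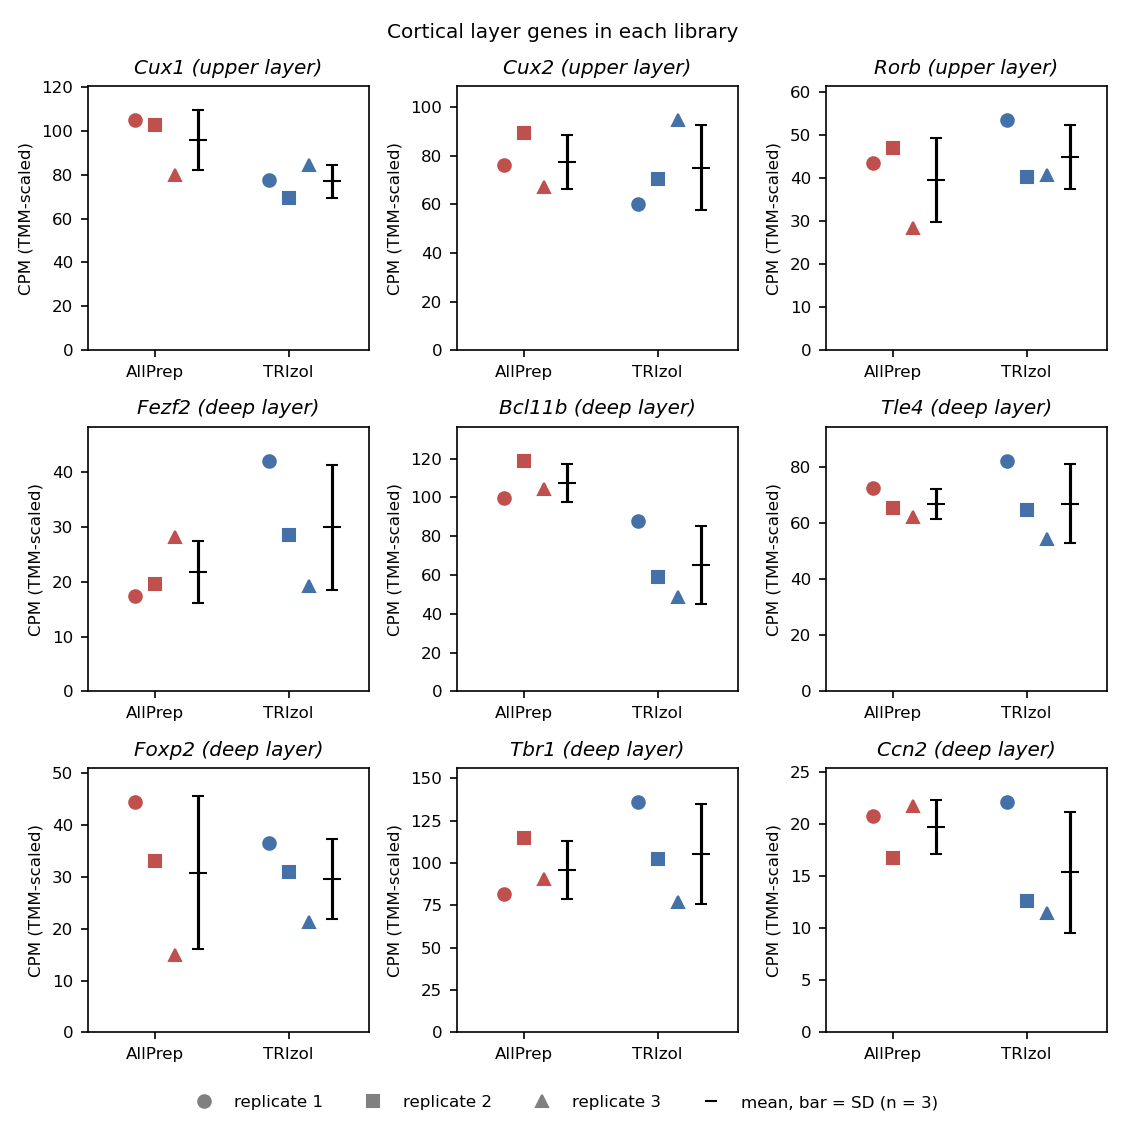
Each panel plots one gene's TMM-scaled CPM (y axis, from 0) in the AllPrep and TRIzol libraries (x axis); circles, squares and triangles are replicates 1, 2 and 3, and the bar is the mean ± SD of 3 libraries. Only Bcl11b has all AllPrep libraries (99.5 to 119 CPM) above all TRIzol libraries (48.8 to 87.9 CPM), while in all 6 deep-layer panels TRIzol replicate 1 is the highest and replicate 3 the lowest of the TRIzol libraries.

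Among the upper-layer genes, Cux1 had 105, 103 and 79.9 CPM in AllPrep replicates 1 to 3, against 77.3, 69.2 and 84.4 CPM in TRIzol replicates 1 to 3. AllPrep replicate 3 lay within the TRIzol range and the other AllPrep libraries above it. The log2 fold change was 0.31 (SE 0.12, adjusted p = 0.16), with a 95% interval of 0.02 to 0.60. The longest annotated Cux1 transcript has 12862 bases, as long as or longer than those of 99.1% of tested genes, and with trends on transcript length and GC content removed the log2 fold change was -0.09 (adjusted p = 0.75). Cux2, its paralog, had 76.1, 89.2 and 67.2 CPM in AllPrep, against 60.4, 70.4 and 94.5 CPM in TRIzol. The highest and the lowest Cux2 values were both in TRIzol libraries, replicates 3 and 1. Its log2 fold change of 0.04 had a 95% interval from -0.34 to 0.46, so changes within that range, in either direction, remain compatible with these libraries. Rorb had 43.4, 47.0 and 28.5 CPM in AllPrep, against 53.4, 40.3 and 40.8 CPM in TRIzol. The AllPrep libraries included the lowest value and the TRIzol libraries the highest, and the log2 fold change was -0.18 (SE 0.20, adjusted p = 0.60; 95% interval -0.66 to 0.26). AllPrep replicate 3 was the lowest of the AllPrep libraries for all 3 upper-layer genes.

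Bcl11b showed the largest difference of the 9 members. It had 99.5, 119 and 104 CPM in AllPrep replicates 1 to 3, against 87.9, 59.2 and 48.8 CPM in TRIzol replicates 1 to 3, with means of 107 ± 9.90 CPM in AllPrep and 65.3 ± 20.2 CPM in TRIzol (SD, n = 3 each). The AllPrep values lay close together, and the gap to the highest TRIzol library was smaller than the spread among TRIzol libraries. The log2 fold change was 0.72 (SE 0.20), a 1.65-fold higher level, with adjusted p = 0.081 and a 95% interval of 0.30 to 1.22. Of all tested genes 95.2% had a log2 fold change at or below this value. The call depended on the tool and on 1 library: DESeq2 gave adjusted p = 0.0049, and without TRIzol replicate 1 edgeR gave a log2 fold change of 0.99 with adjusted p = 0.038, in a fit that called 0.879% of genes. Over the other 5 libraries left out in turn the adjusted p was between 0.11 and 0.20, and with length and GC trends removed the log2 fold change was 0.44 (adjusted p = 0.29).

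Fezf2, which acts upstream of Bcl11b in layer V neurons, had 17.5, 19.6 and 28.3 CPM in AllPrep, against 42.0, 28.6 and 19.2 CPM in TRIzol. The methods overlapped, with the highest value in TRIzol replicate 1 and the lowest in AllPrep replicate 1. The log2 fold change was -0.46 (SE 0.29, adjusted p = 0.36), with a 95% interval of -1.09 to 0.26. Ccn2 had 20.7, 16.7 and 21.7 CPM in AllPrep, against 22.0, 12.6 and 11.5 CPM in TRIzol. TRIzol replicate 1 was above all AllPrep libraries and the other TRIzol libraries were below them, giving a log2 fold change of 0.36 (SE 0.25, adjusted p = 0.39). In the reference annotation a transcript of Gm15270 on the opposite strand shares 665 exon bases with Ccn2, and one of Gm16599 shares 394 with Cux1; neither gene is in the table, and whether strand was used in counting is not given. Without TRIzol replicate 1 the Ccn2 value was 0.71 (adjusted p = 0.069).

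The layer VI genes had edgeR log2 fold changes near 0, but their 95% intervals allow changes in either direction. Tbr1 had 81.9, 115 and 90.6 CPM in AllPrep, against 136, 103 and 77.1 CPM in TRIzol, and Tle4 had 72.6, 65.2 and 62.2 CPM in AllPrep, against 81.9, 64.7 and 54.2 CPM in TRIzol. For both genes the AllPrep libraries lay inside the TRIzol range. The log2 fold changes were -0.13 for Tbr1 (95% interval -0.60 to 0.38) and -0.01 for Tle4 (95% interval -0.33 to 0.35), with adjusted p = 0.72 and 0.99 in edgeR. Foxp2 had 44.4, 33.1 and 15.02 CPM in AllPrep, against 36.5, 31.0 and 21.4 CPM in TRIzol. Its AllPrep libraries held both the highest and the lowest value of all 6, a 2.95-fold range and the widest of the members, and its 95% interval ran from -0.93 to 0.85 (log2).

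**Figure D2:**
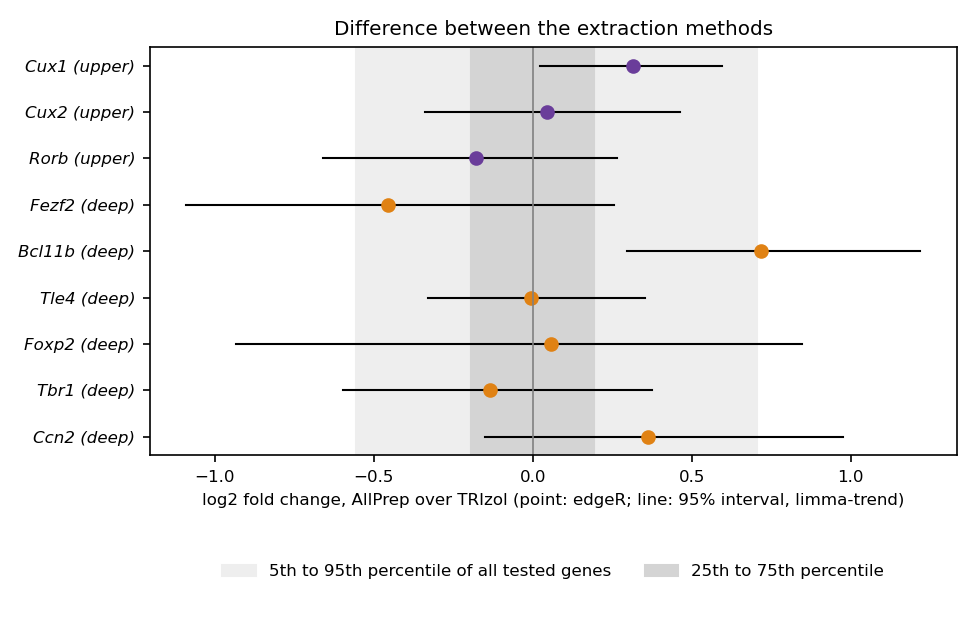
Log2 fold change of AllPrep over TRIzol (x axis) for each gene (y axis): points are edgeR estimates, lines 95% intervals from limma-trend, and grey bands the 5th to 95th and 25th to 75th percentiles of all tested genes. The intervals of Cux1 and Bcl11b lie above 0, and the others include 0.

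The upper-layer and deep-layer sets were also read against each other within each library, as the mean log2 CPM of the 3 upper-layer genes minus that of the 6 deep-layer genes (with 0.5 CPM added). This ratio does not depend on how the library is scaled, apart from the small added value. It was 0.60, 0.70 and 0.35 in AllPrep replicates 1 to 3, against 0.15, 0.51 and 1.11 in TRIzol replicates 1 to 3. The AllPrep libraries lay inside the TRIzol range, with means of 0.55 ± 0.18 in AllPrep and 0.59 ± 0.49 in TRIzol (SD, n = 3 each) and a difference of -0.04. The spread among TRIzol libraries came mainly from the deep-layer side, where the mean centred log2 CPM was 0.39, -0.09 and -0.45 in replicates 1 to 3, against -0.03, -0.15 and 0.09 for the upper-layer genes. All 3 upper-layer transcripts are long, at or above percentile 95.9 of length among tested genes, while Fezf2 and Ccn2 are at percentiles 31 and 32.2. With length and GC trends removed the difference in the ratio was -0.27. The pooled SD of single libraries, before that removal, was 0.37. That SD is not the error of a difference between means of 3 libraries, and no test was made.

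Single pairs of genes showed where the ratios moved. The log2 ratio of Cux2 to Tbr1 was -0.11, -0.37 and -0.43 in AllPrep, against -1.17, -0.54 and 0.29 in TRIzol, so the TRIzol libraries spanned a wider range than the AllPrep libraries and enclosed it. The ratio of Bcl11b to Tbr1 was steady within each method and apart between them, at 0.28, 0.04 and 0.20 in AllPrep, against -0.63, -0.79 and -0.66 in TRIzol. Bcl11b over Fezf2 did not overlap either, with 2.51, 2.60 and 1.88 in AllPrep, against 1.07, 1.05 and 1.35 in TRIzol. Of all 36 pairs of members 7 did not overlap between the methods, 5 of them with Bcl11b. That is 19.4% of pairs, beside 33% of 4056976 pairs among a systematic sample, by symbol order, of genes of at least 1 CPM, so the share was no higher among the members. These ratios were given no test, since 3 against 3 libraries cannot give a two-sided exact permutation p below 0.1.

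**Figure D3:**
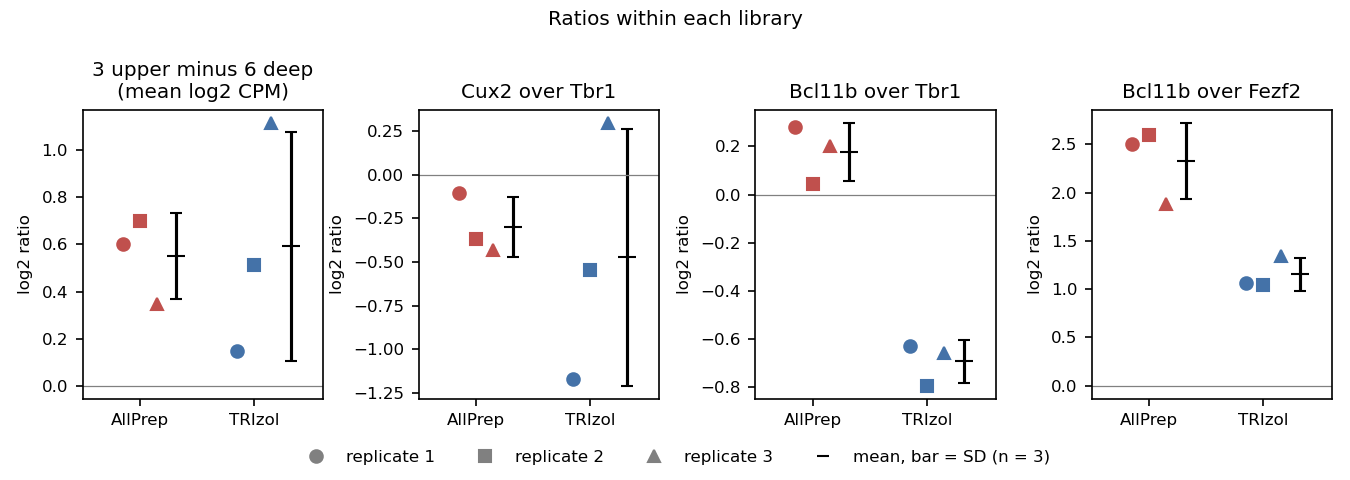
Log2 ratios within each library (y axis) for AllPrep and TRIzol (x axis), with replicates as circles, squares and triangles and bars for the mean ± SD of 3 libraries. The ratio of upper-layer to deep-layer genes and that of Cux2 to Tbr1 overlap between the methods and vary most in TRIzol, while Bcl11b over Tbr1 and Bcl11b over Fezf2 are higher in all 3 AllPrep libraries.

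The deep-layer genes moved together among the TRIzol libraries. For all 6 deep-layer genes TRIzol replicate 1 was the highest and TRIzol replicate 3 the lowest of the TRIzol libraries, and this held for 0 of the 3 upper-layer genes and 18.5% of all tested genes. Fezf2 differed most in this, with a centred log2 CPM (relative to the mean of all 6 libraries) of 0.76 in replicate 1 and -0.35 in replicate 3. Bcl11b had 0.09 and -0.75, Foxp2 0.35 and -0.41, and Tle4 0.30 and -0.29 in the same libraries. The 6 genes shared no such order among the AllPrep libraries. There Fezf2 was highest in replicate 3, Bcl11b and Tbr1 in replicate 2, and Foxp2 in replicate 1. The same held for 9 of 20 other deep-layer cortical genes (45.0%) and 4 of 16 other upper-layer cortical genes (25%), in lists drawn up for this comparison. Genes that co-vary are not independent of each other, so these counts describe 3 libraries. The members and lists were also chosen with earlier results of these data known.

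Markers of brain regions outside the cortex differed between the same libraries, and their part in the layer genes' values was not tested. The mean centred log2 CPM of 14 striatal neuron markers was 0.95, 1.01 and -0.43 in AllPrep replicates 1 to 3, against 0.44, -0.46 and -1.51 in TRIzol replicates 1 to 3. None of the 14 was at 0, and their summed level ran from 833 to 1986 CPM in AllPrep and from 401 to 1268 CPM in TRIzol. TRIzol replicate 1 was the highest and replicate 3 the lowest of the TRIzol libraries for 13 of the 14, and AllPrep replicate 3 was the lowest AllPrep library for 14 of 14. Among them Pde10a, a phosphodiesterase of striatal projection neurons, had 321, 418 and 132 CPM in AllPrep, against 220, 136 and 72.7 CPM in TRIzol. Bcl11b and Foxp2, which striatal neurons also express, differed from each other in AllPrep replicate 3, where Bcl11b stood at 0.34 and Foxp2 at -0.90 on the centred scale. Of 12 thalamic neuron markers 11 were highest among TRIzol libraries in replicate 3 and 11 were lowest among AllPrep libraries in replicate 3. Their mean was 0.26, 0.29 and -0.76 in AllPrep, against -0.83, -0.45 and 1.49 in TRIzol, and their sum ran from 270.5 to 501 CPM in AllPrep and from 226 to 1145 CPM in TRIzol. Prkcd, a protein kinase C gene, had 39.9, 102 and 20.4 CPM in AllPrep, against 11.9, 17.4 and 317 CPM in TRIzol. Between the methods, all 14 striatal markers had positive log2 fold changes (AllPrep over TRIzol) with a median of 0.95, the same direction as Bcl11b at 0.72, and 0 were called by edgeR. Of the thalamic markers 10 of 12 had negative values, with a median of -0.52, and 0 were called. Over all 16325 tested genes 7913 values were positive and 8412 negative.

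**Figure D4:**
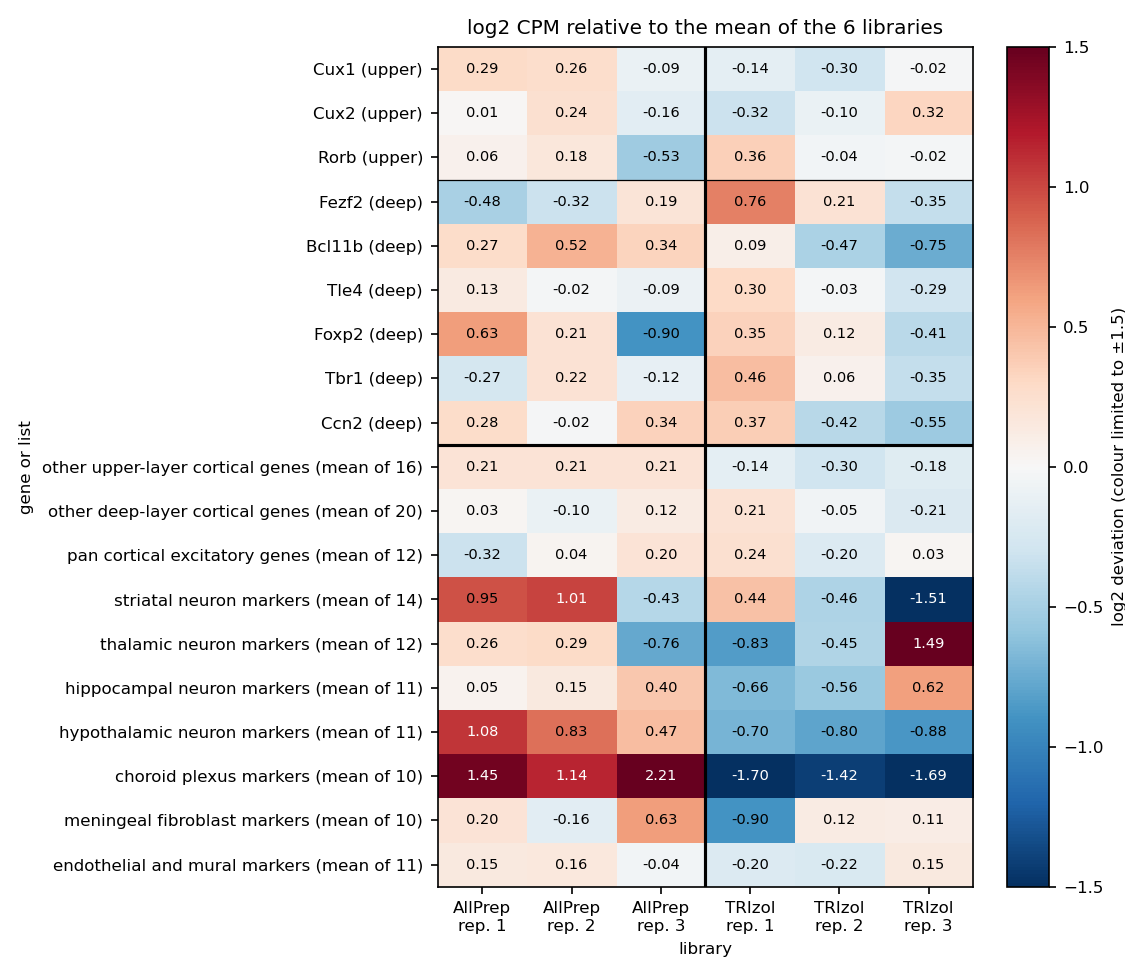
Log2 CPM relative to the mean of the 6 libraries (colour and printed value) for each layer gene and for the mean of each marker list (rows), by library (columns, AllPrep left of the line). Deep-layer genes and striatal markers are both highest in TRIzol replicate 1 and lowest in TRIzol replicate 3 among TRIzol libraries, thalamic markers stand at 1.49 in TRIzol replicate 3, and choroid plexus markers separate the methods.

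Ccn2 was read beside genes of vessels and fibroblasts. Of 11 tested endothelial and mural markers 0 were called by edgeR's quasi-likelihood test, 9 had positive log2 fold changes and the median was 0.15. The smallest p of the list was that of Flt1, a VEGF receptor of endothelium (adjusted p = 0.089). It had 92.4 ± 7.57 CPM in AllPrep and 67.3 ± 12.3 CPM in TRIzol (SD, n = 3 each). Other abundant genes of the list had smaller log2 fold changes, 0.06 for Rgs5 and 0.09 for Slco1a4. The 2 negative values were -0.06 for Cldn5 and -0.08 for Ly6c1. TRIzol replicate 1, the highest TRIzol library for Ccn2, stood at -0.20 on the centred scale for this list and at -0.90 for 10 meningeal fibroblast markers, of which 10 of 10 had positive log2 fold changes with a median of 0.37, beside 0.36 for Ccn2, and 0 were called. Of 9 tested YAP target genes, a programme that Ccn2 belongs to in many cells, 0 were called and 9 had positive values, with a median of 0.20. Over all tested genes 7913 of 16325 values were positive.

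**Figure D5:**
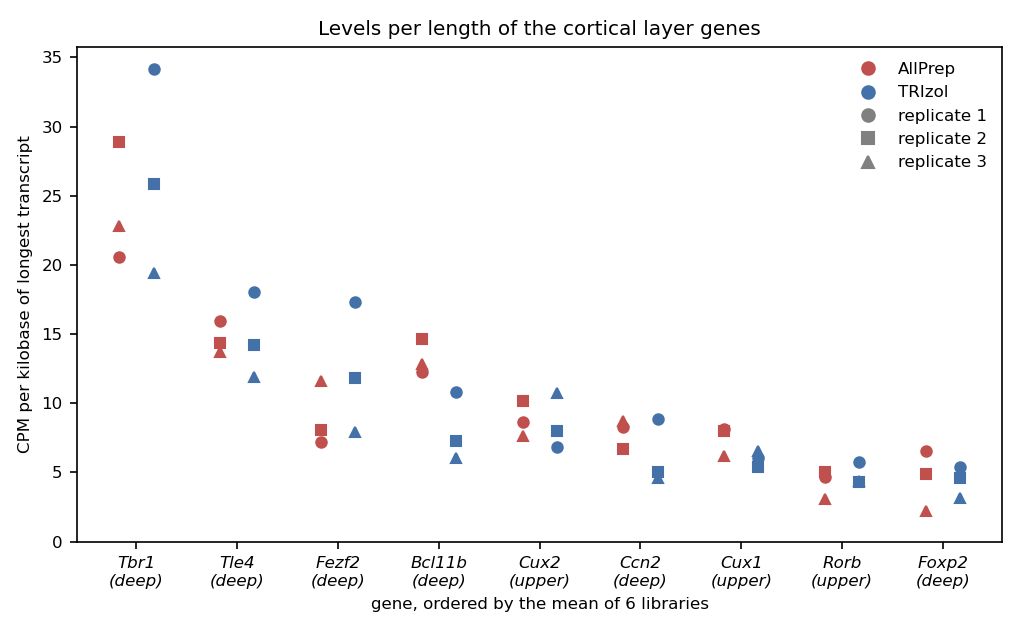
Levels in CPM per kilobase of the longest annotated transcript (y axis, from 0) for each gene (x axis, ordered by the mean of 6 libraries), with AllPrep in red on the left, TRIzol in blue on the right, and replicates by symbol. Tbr1 is the highest and Tle4 the next in the order, while the genes from Fezf2 to Cux1 interleave.

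Levels of different genes were compared in CPM per kilobase of the longest annotated transcript. Tbr1 was the most abundant, with 24.1 ± 4.30 in AllPrep and 26.5 ± 7.40 in TRIzol (SD, n = 3 each), and was above Tle4, at 14.7 ± 1.18 in AllPrep and 14.7 ± 3.08 in TRIzol, in 6 of 6 libraries. Fezf2 followed with 8.97 ± 2.35 in AllPrep and 12.3 ± 4.71 in TRIzol, and Bcl11b with 13.2 ± 1.22 in AllPrep and 8.05 ± 2.49 in TRIzol. Neither was above the other in more than 3 of 6 libraries, and they changed places when the length of all annotated exons was used. Cux2, at 8.83 ± 1.26 in AllPrep and 8.55 ± 2.00 in TRIzol, was above Ccn2 in 4 of 6 libraries, and Ccn2 above Cux1 in 3 of 6. Cux1 was above Rorb in 6 of 6. Rorb, at 4.27 ± 1.05 in AllPrep and 4.83 ± 0.80 in TRIzol, was above Foxp2 in 4 of 6. Foxp2 had 4.56 ± 2.19 in AllPrep and 4.38 ± 1.13 in TRIzol. The gaps between close genes also depended on the length used. Means over all 6 libraries were 4.55 for Rorb and 4.47 for Foxp2, but 3.81 and 1.85 by the length of all annotated exons. For Ccn2 and Cux1 they were 7.04 and 6.71, but 6.13 and 4.31 by that length. Among the members, the coefficient of variation within a method was above the median of all tested genes (8.91% in AllPrep and 11.2% in TRIzol) for 8 of 9 in AllPrep and 8 of 9 in TRIzol. The exceptions were Tle4 in AllPrep, at 8.07%, and Cux1 in TRIzol, at 9.88%.

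Several other upper-layer cortical genes passed the test. Of 16 such genes 6 rose in AllPrep, 0 fell and 10 did not pass, with a median log2 fold change of 0.36. That is 37.5% called higher, beside 2.52% of all tested genes. The list was chosen with earlier results of these data known, so its shares describe these genes and are no test of upper-layer genes. Otof, which encodes the exocytosis protein otoferlin, had 75.3, 40.5 and 70.0 CPM in AllPrep, against 23.4, 26.0 and 18.5 CPM in TRIzol (log2 fold change 1.45, SE 0.24, adjusted p = 0.032). Unc5d, a netrin receptor, had 86.0, 82.6 and 140 CPM in AllPrep, against 43.0, 42.9 and 42.1 CPM in TRIzol. Mdga1, a cell adhesion protein, reached 50.4 ± 11.6 CPM in AllPrep, against 20.3 ± 5.27 CPM in TRIzol. Plxnd1, a semaphorin receptor that vessels also express, Rasgrf2, an exchange factor, and Calb1, a calcium-binding protein that striatal, hippocampal and cerebellar neurons also express, had log2 fold changes of 0.78, 0.67 and 0.58, with adjusted p-values up to 0.048. All 6 were higher in every AllPrep library than in any TRIzol library, as were 8 of the 16 genes, beside 16% of all tested genes. Lamp5, a membrane protein of upper-layer neurons and some interneurons, did not pass, with a log2 fold change of -0.38 (adjusted p = 0.21). These calls needed all 6 libraries: 0, 1 and 1 genes of the list were called without AllPrep replicates 1, 2 and 3, and 1, 0 and 1 without TRIzol replicates 1, 2 and 3, although the 6 values stayed positive in each of these fits. Calls over all tested genes also fell in these fits, from 621 to between 2 and 205. With length and GC trends removed 3 genes of the list were called. Whether these genes differ from Cux1, Cux2 and Rorb in their fold changes was not tested.

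Other deep-layer and pan-cortical genes showed few calls. Of 20 other deep-layer genes 1 fell and 0 rose in edgeR (median log2 fold change 0.04), beside 1.28% and 2.52% of all tested genes. The gene that fell was Col5a1, a fibrillar collagen chain that fibroblasts also make, with 15.9, 11.3 and 17.04 CPM in AllPrep, against 24.6, 28.0 and 30.2 CPM in TRIzol (log2 fold change -0.90, adjusted p = 0.035). It was not called in any of the 6 fits with a library left out, nor with the replicate block. Over all genes those fits called 2 to 205 and 236. Etv1, an ETS factor of layer V, had a log2 fold change of 0.25, and Crym, a thyroid hormone binding protein, 0.30, and neither passed. Tshz2, a zinc finger gene, had 49.3, 51.7 and 49.1 CPM in AllPrep, against 40.6, 47.5 and 172 CPM in TRIzol, where replicate 3 stood apart. Of 12 genes shared by cortical excitatory neurons 0 were called, with a median of -0.13; Slc17a7 had -0.04 and Mef2c, a MADS-box factor, 0.11.

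Paralogs of the members were mostly not called. Of 17 tested paralogs 1 was called, beside 3.8% of all tested genes. It was Fezf1, the hypothalamic and olfactory paralog of Fezf2, with 1.25, 0.66 and 1.04 CPM in AllPrep, against 0.25, 0.05 and 0.04 CPM in TRIzol (log2 fold change 3.14, adjusted p = 0.039). Fezf2 itself had a negative value, and a test of the difference between the paralogs was not made. Of 11 tested hypothalamic markers, a list that also holds Fezf1, 5 were called higher (45.5%), beside 2.52% of all tested genes. Among these 5, Sim1 was also near 0 in TRIzol, with 0.16, 0.36 and 0.22 CPM, while Hdc had 1.48, 1.12 and 0.96 CPM there. Foxp1, the striatal and cortical paralog of Foxp2, had 102, 109 and 68.5 CPM in AllPrep, against 107, 66.8 and 45.6 CPM in TRIzol. As with Foxp2, replicate 3 was the lowest library of each method. Rora, the paralog of Rorb that thalamic neurons express strongly, had 115, 145 and 92.8 CPM in AllPrep, against 72.1, 85.6 and 261 CPM in TRIzol. Its high library, TRIzol replicate 3, was that of the thalamic markers, and Rorb had 40.8 CPM there.

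By a fixed measure, the root mean square difference of centred log2 CPM over the 6 libraries, the genes outside the members nearest to the mean upper-layer profile were Elmo1 (0.040), Tmem65 (0.044) and Robo4 (0.045). Those nearest to the mean deep-layer profile were Odad4 (0.055), Sox4 (0.067) and Dipk2a (0.075).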

How the data were processed

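Per the labels, libraries were amplified by T7 transcription and read as pairs. The authors deposited unnormalized gene counts. The submitters' processing notes list GRCm39 and the programs STAR 2.7.9a, featureCounts, cutadapt, FastQC 0.11.9 and limma 3.60.6; how strand and multi-mapping reads were handled is not given. Groups were taken from the sample titles, which match the labelled method. The 22692 rows held 22584 Ensembl IDs, and 108 repeated rows with identical counts were removed. The comparison used edgeR 4.0.16 in R 4.3.3 (filterByExpr, TMM, two-sided quasi-likelihood F-test, all 6 libraries, no block); the SE is the log2 fold change over the square root of F. Intervals of 95% came from limma-trend (limma 3.58.1, prior count 2). Alternatives included DESeq2 1.42.0, other scalings and filters, omitted libraries, and removal of length and GC trends by smooth curves (mgcv 1.9.3) for the 99.4% of tested genes found in GENCODE vM21, which is on build GRCm38. The edgeR step was tested on simulated data. Libraries of one method all differed by more than counting noise (chi-square over its degrees of freedom, 13.6 to 44.4). The members and lists were chosen with earlier results of these data known. Named were all members, in each list up to 4 called genes with the smallest p and up to 4 more with the highest level (of these, those that help describe the list), and the 3 nearest profiles for each set.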

Additional observations from a re-analysis of the deposited data

How the results depend on the processing

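Of 153 alternative values for the 9 members (17 each), 126 kept direction and side of the threshold, 25 turned sign without passing it, and 2, both of Bcl11b, passed. With length and GC trends removed Cux1 was -0.0865 and Cux2 -0.24 (log2), and with the replicate block added -0.10 and -0.24. Tle4 was 0.0027 with DESeq2's size factors, 0.0026 in DESeq2, 0.0128 in limma-voom, 0.0115 in limma-trend, 0.0025 with counts halved and 0.0113 with the replicate block. Foxp2 was -0.0504 in limma-voom, -0.0438 in limma-trend, -0.0392 with the replicate block, -0.10 with length and GC trends removed and -0.19 with both. Leaving out one library at a time gave -0.0898 to 0.25 for Cux2, -0.32 to 0.0122 for Rorb, -0.13 to 0.17 for Tle4, -0.30 to 0.39 for Foxp2, -0.31 to 0.0923 for Tbr1 and 0.55 to 0.99 for Bcl11b. The difference in the ratio of upper-layer to deep-layer genes was -0.04, and ran from -0.27 to 0.22 under 14 alternatives. It turned positive without Ccn2 (0.02), without Bcl11b and Foxp2 (0.08), without AllPrep replicate 3 (0.06) and without TRIzol replicate 3 (0.22). Each alternative moved it by less than 1 SD of single libraries (0.37), a margin wider than the difference itself. The count of 621 called genes became 2101 in DESeq2, 236 with the replicate block, 401 with length and GC trends removed and 50 with both, and 2 to 205 with a library left out. The share of higher calls was 66.3%, against 52.9% by library size alone and 37.7% with length and GC trends removed. The 6 called upper-layer genes became 2 with the replicate block, 3 with length and GC trends removed, 0 with both, and 0 to 1 with a library left out. The cause of these shifts was not tested. Same-numbered deviations correlated at -0.09, -0.03 and 0.17. AllPrep replicates 1, 2 and 3 correlated best with TRIzol replicates 2, 1 and 3, at 0.23, 0.12 and 0.17. Correlations this weak cannot decide whether the replicate number pairs the libraries. With 3 libraries a method, the width of the intervals limits what can be seen for the members. With counts halved 0 members were called, and the part of counting depth in that width was not tested.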
